A study of Mus musculus with 18 samples.

Results

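The culture treatment Tfh_5 was compared with the culture treatment Tfh_1 across all expressed genes in mouse CD4 T cells labelled CD4Cre- Maf fl/fl. The comparison uses 6 of the 18 libraries of the series, 3 per treatment, and every library bearing that genotype label and either treatment was taken. In both groups the genotype label gives a floxed Maf gene and no CD4Cre transgene, and naive CD4 T cells were sorted after a culture of 3.5 days in wells coated with anti-CD3 and anti-CD28. The treatments share this activation. What Tfh_5 and Tfh_1 contained, and the age of the mice, were not given in the sources used here. The remaining libraries carry the label CD4Cre+ Maf fl/fl or the treatment Tfh_A. Libraries read the polyadenylated end of each transcript and were made from 50 ng of RNA. Nothing states whether the replicates 2, 4 and 5 of a group came from separate animals or cultures, and the p-values therefore measure only a spread between samples that may be technical.

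The title of the series places the transcription factor c-Maf between TGF-β and the choice of CD4 T cells to become T follicular helper (Tfh) or Th17 cells. Tfh cells settle beside B cells and help them make antibody, whereas Th17 cells secrete IL-17 and act at barrier surfaces. A CD4 T cell that has met antigen passes signals through its antigen receptor and through costimulatory receptors. Several of these receptors belong to the TNF receptor family, appear on the surface after activation, and signal to NF-κB for survival. Naive cells instead carry Ccr7 and Klf2 products, which hold them in circulation through lymph nodes.

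Maf, the floxed gene, ran against the genotype label. It had 0 counts in each Tfh_5 library labelled CD4Cre- and 15 counts in the Tfh_1 libraries so labelled, all in replicate 5 (2.03 CPM, the count scaled by the effective library size). Counts here and below are deposited values rounded to whole numbers. The libraries labelled CD4Cre+ held 349 CPM ± 42.0 (SD, n = 3) under Tfh_5 and 221 ± 34.3 under Tfh_1. The sources used here do not say which exon the floxed allele removes, and the groups are named by their labels throughout. All 10 CD4 T cell markers listed, Cd3e, Lck and Trac among them, were above 0 in each of the 6 libraries, with a summed level of 2084 to 2402 CPM under Tfh_5 and 1885 to 2317 CPM under Tfh_1.

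Total counts of the 6 libraries ran from 6437493 to 8219189, and 10242 to 12673 genes per library were above 0. The 2 identifiers with the most counts, both without a name in the reference table, held 40.5% ± 3.29 of the counts under Tfh_5 and 38.1% ± 4.38 under Tfh_1 (SD, n = 3). Tfh_5 replicate 5 stood apart from the other libraries. It had the fewest genes above 0, and it lay at 141.8 on the first principal component of the 6 libraries (29.4% of the variance). The other Tfh_5 libraries lay at 2.82 and -6.43, and the Tfh_1 libraries at -48.4 to -43.8. On the second component (20.7%) Tfh_5 replicate 4 stood apart, at 107.4. Tfh_5 replicates 2 and 5 lay there at 36.7 and -36.1, and the Tfh_1 libraries at -54.9 to -21.9.

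The comparison asks how the transcriptome of activated CD4 T cells differs between these cultures. Timp2, an inhibitor of matrix metalloproteinases, AA467197, a small mitochondrial protein related to the complex IV subunit Ndufa4, and Tagap, a GTPase-activating protein of activated T cells, were the genes with the smallest adjusted p among those higher under Tfh_5. Tnfrsf9, which encodes the costimulatory receptor 4-1BB, led those that were lower, together with Tg, Id3, Glud1, Ccr7, Tnfrsf4 and Tnfrsf18. Of 11735 genes that passed the filter on low counts, of 27179 listed, 65 passed edgeR's quasi-likelihood test at a Benjamini-Hochberg adjusted p under 0.05, which is 0.554% of those tested. 32 were higher under Tfh_5 (0.273%) and 33 lower (0.281%), and 53 of them changed by more than 2-fold. The median log2 fold change over all tested genes was 0.

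The libraries of the treatments did not overlap for 63 of the 65 genes, against 16.0% of all tested genes. These were all 32 genes that were higher (7.57% of tested genes were higher without overlap) and 31 of those lower (8.42%). At an unadjusted p under 0.05 there were 1218 genes. Without Tfh_5 replicate 5 the test called 33 genes, 30 of them among the 65. Without Tfh_1 replicate 2, 4 or 5 it called 35, 38 or 25, and with the 6 libraries alone it called 28, of which 23 were shared. At least 1 fit without another Tfh_5 library called more than 65, and the full range is given in the closing section. The limma-voom test called 82 genes, 38 of them among the 65. 20 of the 65 genes were called whichever library of the 6 was left out. The spread of the other 45 calls over these fits is given beside each gene named below, and calls with no such remark were kept in all 6. In 53 of the 65 genes at least 1 of the 6 libraries held a fractional count, so some reads were divided and other genes may hold the rest of them.

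**Figure D1:**
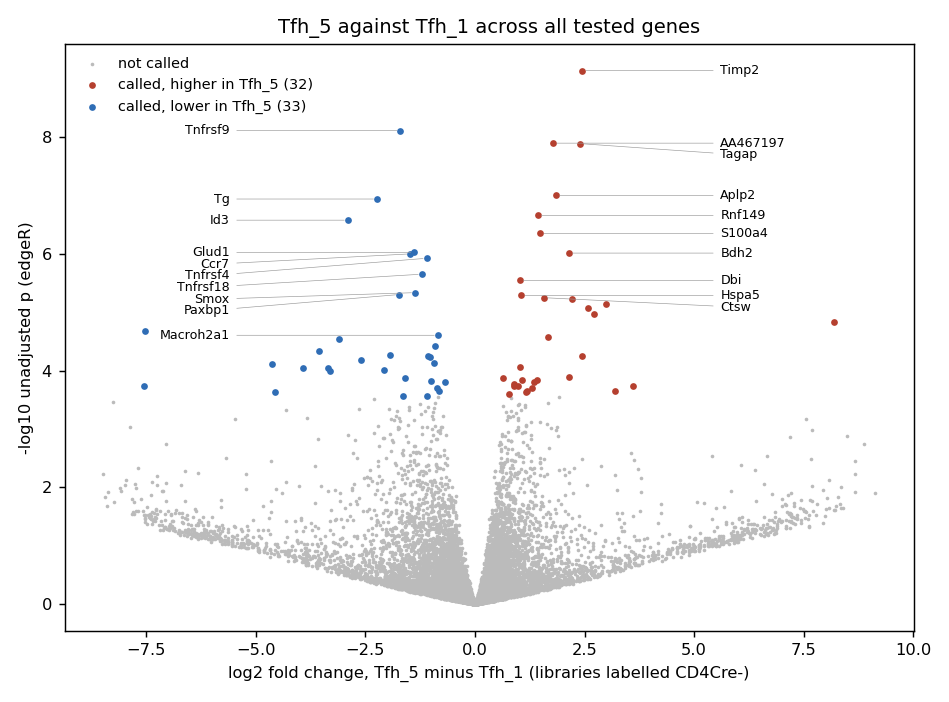
Each point is 1 of 11735 tested genes, with the log2 fold change of Tfh_5 over Tfh_1 in libraries labelled CD4Cre- on the x axis and -log10 of edgeR's unadjusted p on the y axis. The 32 genes called higher are red, the 33 called lower are blue, and the 10 with the smallest adjusted p in each direction are named. Timp2 lies highest on the right and Tnfrsf9 highest on the left.

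The RefSeq promoter windows of the 3 genes with the smallest unadjusted p are shown first, since they lead the comparison. Tagap, the next by that order, had the same adjusted p as Tnfrsf9 and AA467197. Each window runs from 250 bases before to 50 bases after an annotated start in the build GRCm38.p6 and is written 5′ to 3′ on the strand of the gene. Tnfrsf9 lies at chr4:150927749-150928048 on the plus strand, at the inner of its 2 annotated starts, whose window held more matches. AA467197 lies at chr2:122637637-122637936 on the plus strand, and Timp2 at chr11:118355362-118355661 on the minus strand. Capitals mark matches, on either strand, to the AP-1 motif TGANTCA or to the NF-κB consensus.
Tnfrsf9: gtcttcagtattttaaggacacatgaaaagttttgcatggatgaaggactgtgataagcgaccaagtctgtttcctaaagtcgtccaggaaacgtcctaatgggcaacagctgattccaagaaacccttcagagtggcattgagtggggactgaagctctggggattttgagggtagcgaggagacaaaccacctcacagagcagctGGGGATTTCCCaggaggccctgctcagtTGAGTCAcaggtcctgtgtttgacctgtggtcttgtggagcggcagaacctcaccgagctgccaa
AA467197: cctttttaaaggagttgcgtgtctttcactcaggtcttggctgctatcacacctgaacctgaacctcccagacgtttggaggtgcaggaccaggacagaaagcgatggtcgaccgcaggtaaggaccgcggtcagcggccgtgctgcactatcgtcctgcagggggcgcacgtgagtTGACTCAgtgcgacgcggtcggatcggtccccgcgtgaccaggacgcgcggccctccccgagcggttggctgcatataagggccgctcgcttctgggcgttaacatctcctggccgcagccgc
Timp2: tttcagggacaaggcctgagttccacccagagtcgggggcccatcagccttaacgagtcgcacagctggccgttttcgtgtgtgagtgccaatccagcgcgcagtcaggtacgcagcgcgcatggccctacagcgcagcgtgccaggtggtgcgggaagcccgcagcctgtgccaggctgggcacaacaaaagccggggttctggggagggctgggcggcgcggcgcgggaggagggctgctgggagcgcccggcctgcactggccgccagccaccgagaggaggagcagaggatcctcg

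The window of Tnfrsf9 held 1 AP-1 match and 2 NF-κB matches that overlap each other and not the AP-1 match. That of AA467197 held 1 AP-1 match, and that of Timp2 held neither motif. Over all genes with such a window, 8.97% held the AP-1 motif and 5.14% the NF-κB motif, and of the tested genes with one, 5.99% and 6.29% did. Among called genes, 4 of 28 with a window that were higher under Tfh_5 held the AP-1 motif and 4 the NF-κB motif, and of 26 that were lower 3 and 2 did. These matches describe letters in a window and not binding.

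Several costimulatory receptors of the TNF receptor family were lower under Tfh_5. Tnfrsf9 stood at 147, 173 and 142 CPM in the Tfh_5 libraries (replicates 2, 4 and 5, in this order here and below) and at 514, 519 and 466 CPM in the Tfh_1 libraries. Every Tfh_5 library lay below every Tfh_1 library by a wide margin, and the log2 fold change was -1.70 ± 0.23 (SE, edgeR adjusted p = 3.79e-05). Tnfrsf4, which encodes OX40, stood at 298, 363 and 267 CPM under Tfh_5 and at 608, 726 and 657 CPM under Tfh_1. The groups did not overlap, and the gene fell by 1.10 ± 0.19 on the log2 scale (edgeR adjusted p = 0.00107). Tnfrsf18, which encodes GITR, had 164, 185 and 148 CPM under Tfh_5 and 314, 469 and 367 CPM under Tfh_1. It was lower in all 3 Tfh_5 libraries, with a log2 fold change of -1.21 ± 0.21 (edgeR adjusted p = 0.00187).

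Tnfrsf4 and Tnfrsf18 are neighbours on chromosome 4 of GRCm38.p6, where Tnfrsf4 spans 156013595 to 156016613 and Tnfrsf18 spans 156026322 to 156028894. Tnfrsf4 overlaps the annotated end of Sdf4, which encodes a calcium-binding protein of the Golgi. Sdf4, named after its values were seen because of this overlap, stood at 179, 284 and 302 CPM under Tfh_5 and at 422, 496 and 482 CPM under Tfh_1 (log2 fold change -0.87 ± 0.21, edgeR adjusted p = 0.0410). Its call was lost without any of the 3 Tfh_1 libraries or without Tfh_5 replicate 2 (adjusted p = 0.0737 to 0.197), and the sources used here do not say how reads in the overlap were assigned.

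The list of TNF receptor family genes and costimulators held 20 tested genes, of which 4 fell and 0 rose, with a median log2 fold change of -0.17. Over all tested genes 0.281% fell, 0.273% rose and 49.2% had positive estimates, and these shares stand beside each list below as well. The lists were chosen with earlier results of these data known. The remaining called member of the TNF receptor list was Slamf1, the homophilic receptor CD150. It had 1.81, 0 and 0 CPM under Tfh_5 and 4.13, 21.8 and 23.0 CPM under Tfh_1. It was near 0 in the Tfh_5 libraries (14 counts in all) and uneven among the Tfh_1 libraries (338 counts). Its call (log2 fold change -4.64 ± 0.98, edgeR adjusted p = 0.0248) was lost without Tfh_1 replicate 4 or 5 or Tfh_5 replicate 4 or 5 (adjusted p = 0.0523 to 0.109). Icos, a costimulator needed by Tfh cells, was not called, at 47.7, 52.0 and 62.2 CPM under Tfh_5 and 47.4, 85.7 and 89.5 CPM under Tfh_1 (-0.46 ± 0.24, adjusted p = 0.507).

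**Figure D2:**
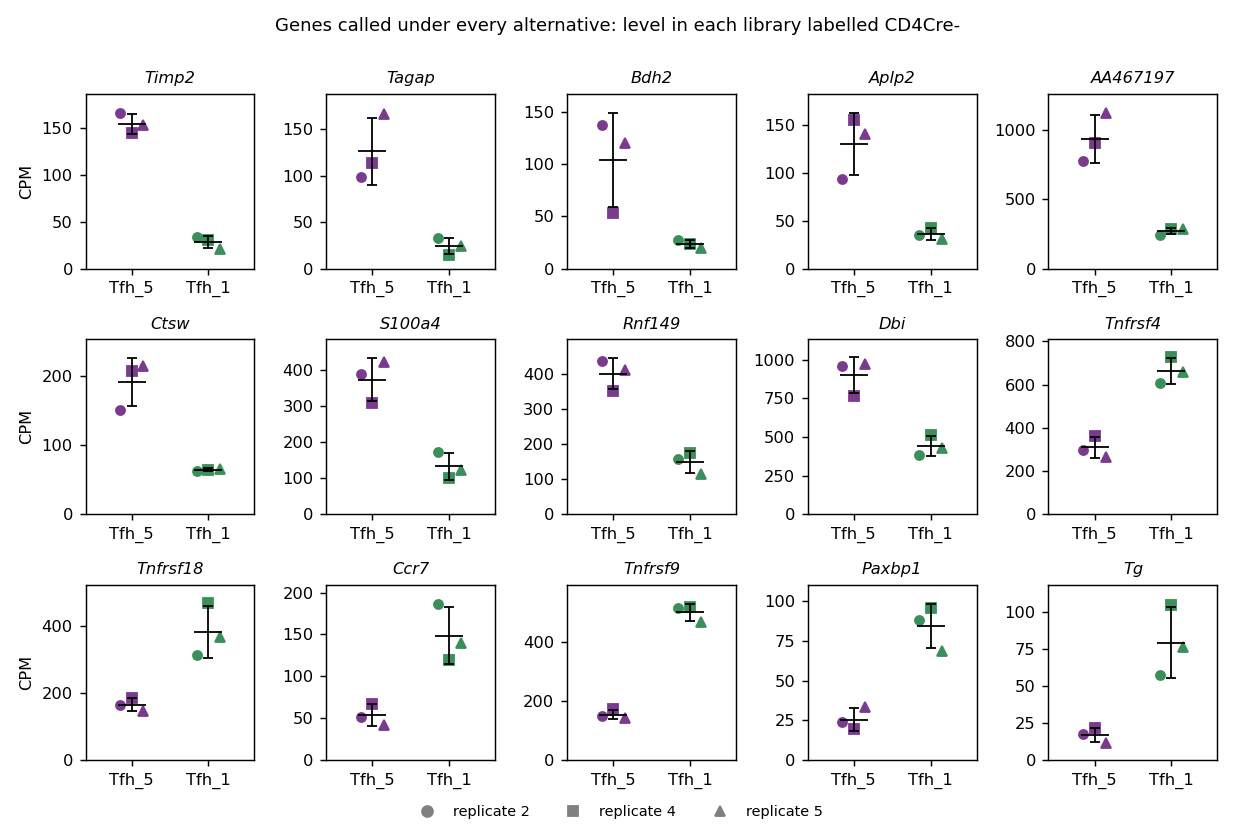
Points are CPM in each library labelled CD4Cre- for the 15 named genes called under every alternative tried, with replicates 2, 4 and 5 as circles, squares and triangles, Tfh_5 on the left and Tfh_1 on the right of each panel. Horizontal bars are means and error bars are SD of 3 libraries. The 3 libraries of each treatment do not overlap in any panel. Tnfrsf9 lies at 142 to 173 CPM under Tfh_5 and 466 to 519 CPM under Tfh_1, and Timp2 at 145 to 166 CPM under Tfh_5 and 20.9 to 33.7 CPM under Tfh_1.

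Tagap, which was called higher, is not on the list of T cell receptor activation, and the called genes on that list were lower. Nr4a1, the orphan nuclear receptor Nur77 and an early response gene of the receptor, had 0.778, 3.85 and 1.51 CPM under Tfh_5 and 14.7, 19.9 and 38.2 CPM under Tfh_1. No Tfh_5 library reached a Tfh_1 library, and the log2 fold change was -3.56 ± 0.77 (edgeR adjusted p = 0.0180). The call was lost without Tfh_1 replicate 5, Tfh_5 replicate 2 or Tfh_5 replicate 5 (adjusted p = 0.0947 to 0.109). Of 26 tested genes on the list of T cell receptor activation 4 fell and 0 rose (median log2 fold change -0.38), and the others called were the 3 TNF receptor genes above. These 3 are also the called members of the regulatory T cell list (3 of 15 lower, median -0.52), and Tnfrsf9 is the called member of the IL-2 and STAT5 list (1 of 22 lower, median -0.05). Il2ra, the high-affinity chain of the receptor for IL-2, stood at 887, 660 and 746 CPM under Tfh_5 and at 536, 580 and 648 CPM under Tfh_1, which was not called (0.38 ± 0.18, edgeR adjusted p = 0.457).

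Cd4 and Cd247 were the genes of proximal receptor signalling that were called lower. Cd4, the coreceptor, stood at 49.4, 64.98 and 57.9 CPM under Tfh_5 and at 113, 113 and 127 CPM under Tfh_1. The groups did not overlap (log2 fold change -1.04 ± 0.23, edgeR adjusted p = 0.0206), but the call was lost without any of the 3 Tfh_1 libraries or without Tfh_5 replicate 2 or 5 (adjusted p = 0.0541 to 0.109). Cd247, the signalling ζ chain of the CD3 complex, had 40.7, 55.3 and 35.5 CPM under Tfh_5 and 103, 91.9 and 84.2 CPM under Tfh_1. All Tfh_5 values lay below all Tfh_1 values (-1.09 ± 0.27, edgeR adjusted p = 0.0496), and the call held without Tfh_5 replicate 4 but in no other of the 6 fits (adjusted p = 0.109 to 0.206). Of 32 tested genes of proximal receptor signalling these 2 fell and 0 rose, with a median of -0.38. Of the 32 estimates, 10 were positive and 22 negative. The 10 CD4 T cell markers, Cd4 among them, had a median of -0.10, with 4 positive and 6 negative estimates. In bulk RNA, fewer cells of a type and less RNA per cell cannot be told apart.

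Some genes of naive and recirculating cells were lower as well. Ccr7, the chemokine receptor that guides cells into the T cell zone, stood at 51.7, 67.4 and 41.1 CPM under Tfh_5 and at 186, 120 and 139 CPM under Tfh_1. The highest Tfh_5 library lay below the lowest Tfh_1 library, with a log2 fold change of -1.47 ± 0.25 (edgeR adjusted p = 0.000978). Satb1, an organiser of chromatin in T cell development, had 594, 589 and 495 CPM under Tfh_5 and 800, 1008 and 892 CPM under Tfh_1 (-0.69 ± 0.16, adjusted p = 0.0361). This smaller difference kept the libraries apart, and its call held only without Tfh_5 replicate 2 (adjusted p = 0.0533 to 0.188 in the other 5 fits). Klf2, a factor that maintains trafficking receptors, had 1 count under Tfh_5 and 32 under Tfh_1, a 33.1-fold lower level with a 95% counting interval of 5.53 to 1347. The libraries overlapped at 0, since Tfh_1 replicate 4 also had none, and the gene passed the filter through the 4 groups outside this comparison (17.5 to 49.99 CPM on average). It was not tested with the 6 libraries alone, limma-voom did not call it (adjusted p = 0.581), and its call in edgeR (adjusted p = 0.0441) was lost without Tfh_1 replicate 2 or 5 or Tfh_5 replicate 2 or 5 (adjusted p = 0.0615 to 0.548). Of 21 tested genes on the naive and memory list 3 fell, Klf2 included, and 0 rose, and 16 of the 21 estimates were negative (median -0.69).

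Of 23 tested genes on the chemokine receptor and migration list, Ccr7 among them, 2 fell and 0 rose, with a median log2 fold change of -0.27. Ccr6, the receptor that marks Th17 cells, was not called and overlapped between groups (122, 46.6 and 38.5 CPM under Tfh_5, against 36.6, 33.3 and 48.0 CPM under Tfh_1). Wipf1, which binds the actin regulator WASP, was the called member of 30 actin and motility genes (-1.60 ± 0.37, edgeR adjusted p = 0.0349). It averaged 14.8 CPM ± 5.56 under Tfh_5 and 44.9 ± 3.76 under Tfh_1 (SD, n = 3), and its call was lost without any of the 3 Tfh_1 libraries or without Tfh_5 replicate 5 (adjusted p = 0.0616 to 0.182).

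Among transcription factors, Id3, an inhibitor of E proteins, had 2.46, 4.13 and 1.67 CPM under Tfh_5 and 13.2, 19.8 and 29.3 CPM under Tfh_1. Each Tfh_5 library was several times below the lowest Tfh_1 library, with a log2 fold change of -2.90 ± 0.46 (edgeR adjusted p = 0.000388, 0.120 with the 6 libraries alone and 0.264 in limma-voom). Sox4, an SRY-box factor that TGF-β induces in T cells, had 10.4, 28.1 and 14.7 CPM under Tfh_5 and 3.96, 0 and 1.89 CPM under Tfh_1. It was low in both groups and higher in every Tfh_5 library (3.19 ± 0.67, edgeR adjusted p = 0.0437), and the call was lost without Tfh_1 replicate 5 or without any of the 3 Tfh_5 libraries (adjusted p = 0.0513 to 0.246). With Klf2 these are the called members of 30 Ikaros, TCF, SOX, KLF, RUNX and ID factors, 1 higher and 2 lower, with a median of -0.08. Tcf7, the Tfh-promoting factor TCF-1, had only 11 counts under Tfh_5 and 15 under Tfh_1.

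The TGF-β list had 27 tested genes, 1 higher and 1 lower, with a median log2 fold change of 0.39. Pmepa1, a membrane protein that TGF-β induces and that holds back SMAD signalling, stood at 292, 292 and 324 CPM under Tfh_5 and at 107, 160 and 175 CPM under Tfh_1. All Tfh_5 libraries lay above all Tfh_1 libraries (1.03 ± 0.23, edgeR adjusted p = 0.0264), but the call was lost without Tfh_1 replicate 2 or 4 or Tfh_5 replicate 5 (adjusted p = 0.0685 to 0.196). The member that fell was Id3, which is also the called gene of the Tfh list (1 of 24 lower, median -0.28). Smad7, the inhibitory SMAD, was not called, at 14.7, 5.70 and 5.52 CPM under Tfh_5 and 4.95, 9.74 and 4.9996 CPM under Tfh_1. Itgae, the integrin chain CD103, had 78 counts under Tfh_5 and 20 under Tfh_1 and was not called (adjusted p = 0.886).

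Of 21 tested genes on the Th17 list Tmem176b was called, and of 24 on the Tfh list Id3 was. Il17a stood at 125, 202 and 167 CPM under Tfh_5 and at 76.9, 108 and 149 CPM under Tfh_1, so that the groups overlapped (log2 fold change 0.56 ± 0.28, edgeR adjusted p = 0.483). Il17f overlapped too, with 46.5 to 110 CPM under Tfh_5 and 36.5 to 98.8 CPM under Tfh_1. Il21, the cytokine of Tfh cells, had 126, 121 and 77.3 CPM under Tfh_5 and 164, 101 and 139 CPM under Tfh_1 (-0.32 ± 0.28, adjusted p = 0.794). Pdcd1, the receptor PD-1, overlapped at 33.2 to 62.1 CPM under Tfh_5 and 15.7 to 36.2 CPM under Tfh_1. Ifng and Il22 were at 0 counts in all 6 libraries, and so was Bcl6 after a fraction in 1 library was rounded, which allows up to 3 counts per group, and Foxp3, Il4 and Prdm1 had 6, 0 and 0 counts under Tfh_5 and 0, 1 and 19 under Tfh_1, too few to be tested.

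Tmem176b, a transmembrane protein found in Th17 cells, stood at 52.2, 107 and 103 CPM under Tfh_5 and 19.5, 12.9 and 15.5 CPM under Tfh_1. The libraries stood well apart (log2 fold change 2.45 ± 0.53, edgeR adjusted p = 0.0201), yet the call held only without Tfh_5 replicate 2 and was lost in the other 5 fits (adjusted p = 0.0613 to 0.109). The median of the Th17 list was 0.56, with 14 positive and 7 negative estimates. Il24, a cytokine of the IL-10 family, did not pass despite separate libraries (11.02, 39.8 and 23.6 CPM under Tfh_5, against 71.96, 80.5 and 108 CPM under Tfh_1, adjusted p = 0.186). Among 32 secreted cytokines and mediators, Lif alone was called. Its product, leukaemia inhibitory factor, signals through gp130, and it had 1 count under Tfh_5 and 245 under Tfh_1, a 253-fold lower level with a 95% counting interval of 45.0 to 10046. Its 3 Tfh_1 libraries were uneven (16.2, 3.20 and 17.0 CPM), and the call (adjusted p = 0.0399) held only without Tfh_1 replicate 4 (adjusted p = 0.0556 to 0.144 in the other 5 fits).

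**Figure D3:**
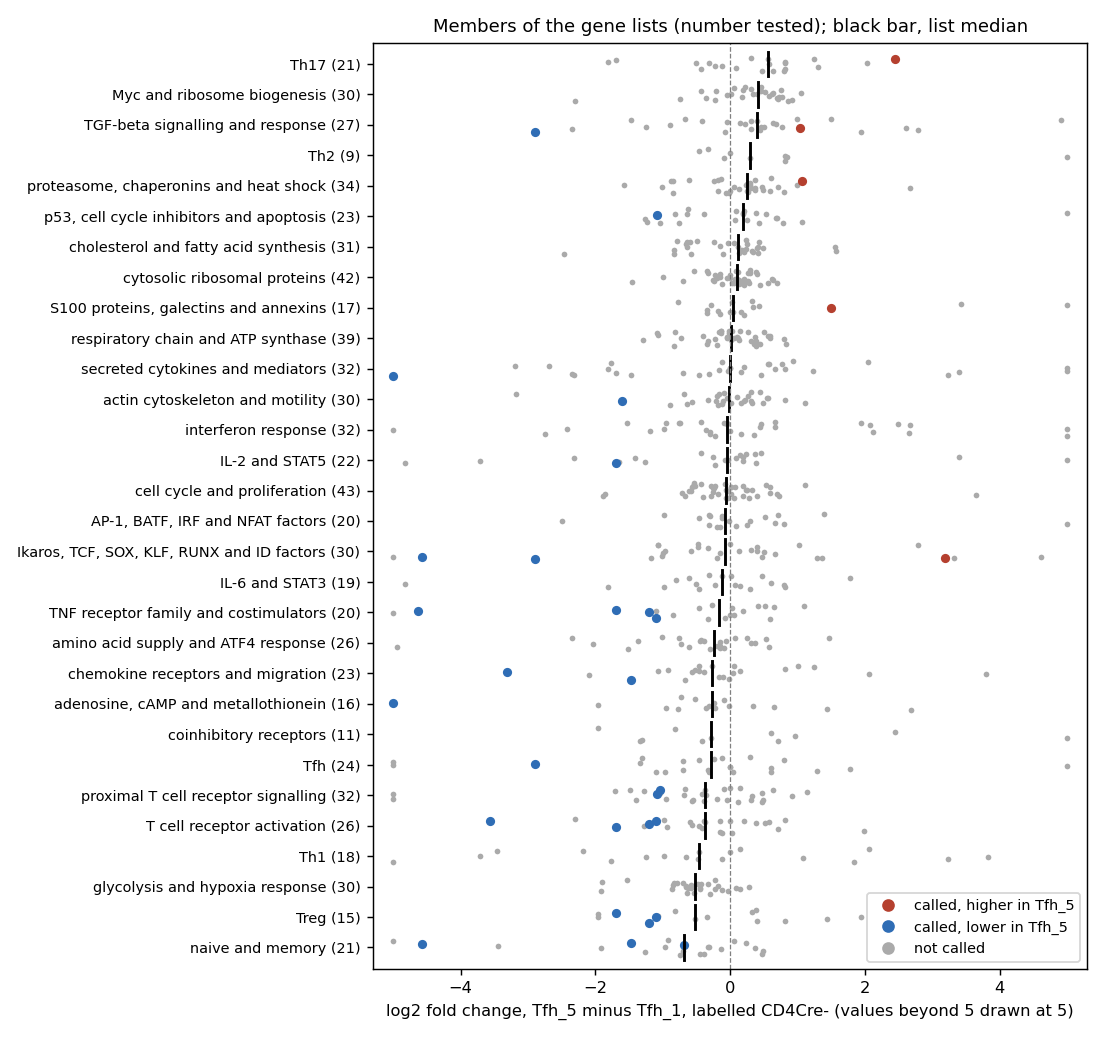
Rows are the 30 gene lists with the number of tested members, ordered by the median log2 fold change of Tfh_5 over Tfh_1 in libraries labelled CD4Cre- (black bars, x axis). Points are single genes, red where called higher, blue where called lower and grey where not called, and values beyond 5 are drawn at 5. The naive and memory list has the lowest median (-0.69) and the Th17 list the highest (0.56), and most lists centre near 0.

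Timp2, the gene with the smallest adjusted p, stood at 166, 145 and 154 CPM under Tfh_5 and at 33.7, 30.3 and 20.9 CPM under Tfh_1. The lowest Tfh_5 library lay far above the highest Tfh_1 library, with a log2 fold change of 2.45 ± 0.29 (edgeR adjusted p = 8.53e-06). Its family member Timp1, named after its values were seen, averaged 653 CPM ± 67.8 under Tfh_5 and 353 ± 22.9 under Tfh_1 (0.89 ± 0.21, edgeR adjusted p = 0.0399), a call that held only without Tfh_5 replicate 2 (adjusted p = 0.0895 to 0.193 in the other 5 fits). Ctsw, the protease cathepsin W known from cytotoxic lymphocytes, had 151, 208 and 215 CPM under Tfh_5 and 62.4, 64.5 and 66.2 CPM under Tfh_1. Its libraries were tightly grouped under Tfh_1 and all higher under Tfh_5 (1.57 ± 0.29, edgeR adjusted p = 0.00348). Cstdc4, a cystatin-domain gene with close copies and fractional counts in 4 of the 6 libraries, was lower, at 4.22 CPM ± 3.09 under Tfh_5 and 63.6 ± 16.4 under Tfh_1 (-3.92 ± 0.86, edgeR adjusted p = 0.0266). Its call was lost in 5 of the 6 fits (adjusted p = 0.0579 to 0.109) and kept without Tfh_1 replicate 2.

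S100a4, a calcium-binding protein of motile and memory cells, stood at 388, 308 and 422 CPM under Tfh_5 and at 173, 102 and 123 CPM under Tfh_1. The groups did not overlap (1.49 ± 0.24, edgeR adjusted p = 0.000583), and it was the called member of 17 tested S100, galectin and annexin genes, whose median was 0.05. Aplp2, a relative of the amyloid precursor protein, had 93.2, 155 and 141 CPM under Tfh_5 and 34.8, 42.3 and 30.9 CPM under Tfh_1. Every Tfh_5 library was more than 2-fold above every Tfh_1 library, with a log2 fold change of 1.85 ± 0.28 (edgeR adjusted p = 0.000225). Pdlim5, a PDZ and LIM domain protein of the cytoskeleton, averaged 31.4 CPM ± 7.75 under Tfh_5 and 3.93 ± 0.224 under Tfh_1 (2.99 ± 0.57, edgeR adjusted p = 0.00409), which limma-voom did not call (adjusted p = 0.190).

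Tagap stood at 98.3, 113 and 167 CPM under Tfh_5 and at 32.3, 15.1 and 24.3 CPM under Tfh_1, with no overlap (log2 fold change 2.40 ± 0.33, edgeR adjusted p = 3.79e-05). Rnf149, a RING finger ubiquitin ligase, had 440, 353 and 413 CPM under Tfh_5 and 157, 175 and 115 CPM under Tfh_1. It too was higher in all 3 Tfh_5 libraries (1.43 ± 0.22, edgeR adjusted p = 0.000367). Hspa5, the endoplasmic reticulum chaperone BiP, averaged 480 CPM ± 80.5 under Tfh_5 and 231 ± 44.9 under Tfh_1 (1.06 ± 0.20, adjusted p = 0.00335, and 0.0707 with the 6 libraries alone). It was the called member of 34 proteasome, chaperonin and heat shock genes, which had a median of 0.24. Endod1, an endonuclease-domain protein, averaged 53.5 CPM ± 0.981 under Tfh_5 and 9.01 ± 4.50 under Tfh_1 (2.57 ± 0.49, adjusted p = 0.00445), a call lost without Tfh_1 replicate 5 (adjusted p = 0.0825). Tgtp2, an interferon-inducible GTPase with the near copy Tgtp1, had 38.6 CPM ± 4.33 under Tfh_5 and 8.67 ± 2.84 under Tfh_1 (2.15 ± 0.50, adjusted p = 0.0349), but its call was lost in all 6 fits that left out a library (adjusted p = 0.0513 to 0.167).

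AA467197, the small mitochondrial protein, stood at 780, 910 and 1124 CPM under Tfh_5 and at 245, 283 and 288 CPM under Tfh_1. It was among the most abundant called genes, with every Tfh_5 library more than 2-fold above every Tfh_1 library (log2 fold change 1.79 ± 0.24, edgeR adjusted p = 3.79e-05). Dbi, which encodes the acyl-CoA-binding protein, had 958, 766 and 975 CPM under Tfh_5 and 387, 515 and 427 CPM under Tfh_1. It was higher in all 3 Tfh_5 libraries (1.02 ± 0.18, edgeR adjusted p = 0.00223), with fractional counts in all 6. Bdh2, a cytosolic hydroxybutyrate dehydrogenase, had 138, 53.2 and 120 CPM under Tfh_5 and 26.9, 23.6 and 19.998 CPM under Tfh_1 (2.14 ± 0.36, adjusted p = 0.000978), with Tfh_5 replicate 4 the lowest of its group.

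Lonp2, the Lon protease of peroxisomes, averaged 113 CPM ± 24.9 under Tfh_5 and 24.4 ± 9.82 under Tfh_1 (2.21 ± 0.41, edgeR adjusted p = 0.00348), a call lost without Tfh_1 replicate 5 (adjusted p = 0.0680). Acsbg1, an acyl-CoA synthetase for very long fatty acids, averaged 49.4 CPM ± 11.7 under Tfh_5 and 7.45 ± 5.26 under Tfh_1 (2.72 ± 0.53, adjusted p = 0.00553), a gene not called without Tfh_1 replicate 2 (adjusted p = 0.0672) or 4 (adjusted p = 0.0604). Lamtor5, a subunit of the Ragulator complex that anchors mTORC1 at lysosomes, averaged 97.9 CPM ± 42.0 under Tfh_5 and 31.0 ± 7.69 under Tfh_1, and the call (1.66 ± 0.34, adjusted p = 0.0116) was lost without Tfh_1 replicate 4 or 5 or Tfh_5 replicate 5 (adjusted p = 0.0541 to 0.127). Pccb, the β chain of propionyl-CoA carboxylase, had 12.4, 14.4 and 43.2 CPM under Tfh_5 and 0.825, 3.96 and 0.946 CPM under Tfh_1. Its mean under Tfh_5 leaned on replicate 5, and the call (3.60 ± 0.86, adjusted p = 0.0399) was lost without that library (adjusted p = 0.208) or without Tfh_1 replicate 2 (adjusted p = 0.193) or 5 (adjusted p = 0.243).

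Glud1, glutamate dehydrogenase, stood at 72.2, 179 and 150 CPM under Tfh_5 and at 327, 331 and 391 CPM under Tfh_1. All 3 Tfh_5 libraries lay below the Tfh_1 libraries (log2 fold change -1.39 ± 0.23, edgeR adjusted p = 0.000978, and 0.0791 with the 6 libraries alone). Smox, spermine oxidase, had 58.7, 122 and 91.5 CPM under Tfh_5 and 198, 282 and 222 CPM under Tfh_1 (-1.37 ± 0.25, edgeR adjusted p = 0.00335, and 0.0707 with the 6 libraries alone). Tg, which encodes thyroglobulin in the thyroid, had 17.4, 21.5 and 11.7 CPM under Tfh_5 and 57.3, 105 and 76.2 CPM under Tfh_1, again without overlap (-2.23 ± 0.34, edgeR adjusted p = 0.000225). Tgm2, a protein cross-linking enzyme, had 241, 249 and 255 CPM under Tfh_5 and 421, 414 and 488 CPM under Tfh_1. The libraries were close within each group (-0.83 ± 0.20, edgeR adjusted p = 0.0437), yet the call was lost in all 6 fits that left out a library (adjusted p = 0.0790 to 0.236).

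Further genes were lower under Tfh_5. Paxbp1, a PAX-binding protein, stood at 23.7, 19.2 and 33.3 CPM under Tfh_5 and at 88.3, 95.6 and 68.8 CPM under Tfh_1 (-1.73 ± 0.32, edgeR adjusted p = 0.00335). Macroh2a1, the histone variant macroH2A, averaged 226 CPM ± 18.8 under Tfh_5 and 407 ± 48.8 under Tfh_1 (-0.85 ± 0.17, adjusted p = 0.0112), a call lost without Tfh_1 replicate 2 or 4 or Tfh_5 replicate 5 (adjusted p = 0.0669 to 0.0839). Cdkn1a, the cell cycle inhibitor p21, had 84.9, 129 and 121 CPM under Tfh_5 and 231, 195 and 282 CPM under Tfh_1. It was lower in each Tfh_5 library (-1.08 ± 0.24, edgeR adjusted p = 0.0201), and the call was lost without Tfh_1 replicate 2 or 5 or Tfh_5 replicate 2 or 5 (adjusted p = 0.0509 to 0.172). It was the called member of 23 genes of p53, cell cycle inhibition and apoptosis (median 0.19).

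Polr2b, a core subunit of RNA polymerase II, Alkbh5, a demethylase of mRNA, and Snrnp70, a protein of the U1 splicing particle, averaged 2.73 CPM ± 2.09, 22.2 ± 16.8 and 34.3 ± 13.3 under Tfh_5, and 23.8 CPM ± 6.31, 84.7 ± 21.1 and 106 ± 28.1 under Tfh_1. Their log2 fold changes were -3.10 ± 0.65, -1.93 ± 0.42 and -1.63 ± 0.39 (edgeR adjusted p = 0.0120, 0.0201 and 0.0496). The call of Polr2b was lost without Tfh_1 replicate 5 or Tfh_5 replicate 5 (adjusted p = 0.0821 to 0.0889), that of Alkbh5 also without Tfh_5 replicate 2 (adjusted p = 0.0794 to 0.126), and that of Snrnp70 without each library except Tfh_1 replicate 4 (adjusted p = 0.0673 to 0.227). St6gal1, a sialyltransferase, Trim59, a membrane-bound ubiquitin ligase, and Pde6d, a chaperone of prenylated proteins, averaged 1.88 CPM ± 1.76, 5.86 ± 1.01 and 7.76 ± 5.19 under Tfh_5, against 19.9 CPM ± 4.60, 35.8 ± 4.68 and 32.7 ± 7.1995 under Tfh_1. They fell by 3.35 ± 0.70, 2.61 ± 0.58 and 2.07 ± 0.47 on the log2 scale (edgeR adjusted p = 0.0266, 0.0220 and 0.0277). The call of St6gal1 was lost without any of the 3 Tfh_1 libraries or Tfh_5 replicate 4 (adjusted p = 0.0690 to 0.109). Those of Trim59 and Pde6d were lost without Tfh_1 replicate 2 or 5 or Tfh_5 replicate 2 or 5 (adjusted p = 0.0794 to 0.0945 for Trim59 and 0.0824 to 0.147 for Pde6d). Adora2a, a receptor for adenosine that raises cyclic AMP, had 0 counts under Tfh_5 and 65 under Tfh_1, where replicate 2 had none, so it was at least 22.4-fold lower, taking 3 counts as the most a group at 0 allows. It passed the filter through the 4 groups outside this comparison (11.3 to 29.5 CPM on average) and was not tested with the 6 libraries alone. Its call (edgeR adjusted p = 0.00998) was lost without Tfh_1 replicate 5 (adjusted p = 0.0680) and in limma-voom (adjusted p = 0.324).

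Of the remaining gene lists, that of adenosine, cAMP and metallothionein genes held Adora2a, and the others held no called gene. In all, 21 of the 653 distinct tested genes on the 30 lists were called (3.22%, against 0.554% of all tested genes), 5 higher and 16 lower. Because the lists were chosen with earlier results of these data known, the larger share is not evidence about them. 13 lists had no called gene, with medians from -0.52 to 0.42. Of 30 glycolysis and hypoxia genes 27 had negative estimates (median -0.52), and the nearest to a call were the hexokinase gene Hk2, at 127, 138 and 136 CPM under Tfh_5 and 221, 236 and 264 CPM under Tfh_1 (-0.85 ± 0.21, edgeR adjusted p = 0.0502), and the triose phosphate isomerase gene Tpi1 (-0.83 ± 0.23, adjusted p = 0.0918). Hk2 thus separated the groups and stood at the threshold. Of 30 Myc and ribosome biogenesis genes 23 had positive estimates (median 0.42), with Nop58, a core protein of box C/D particles, at 0.76 ± 0.23 (adjusted p = 0.136). Of 42 cytosolic ribosomal proteins 27 were positive (median 0.09), and Rps20 came nearest at 0.63 ± 0.16 (adjusted p = 0.0603). Of 43 cell cycle genes 19 were positive and 24 negative (median -0.06), and the replication helicase gene Mcm4 came nearest at -1.86 ± 0.50 (adjusted p = 0.0737).

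The Th1 list (18 tested, median -0.47) was led by Bhlhe40, a factor needed for cytokine production, at 26.4, 92.8 and 87.7 CPM under Tfh_5 and 161, 159 and 174 CPM under Tfh_1 (-1.26 ± 0.32, edgeR adjusted p = 0.0592). The AP-1, BATF, IRF and NFAT list (20 tested, median -0.07) was led by the AP-1 factor gene Fosl2, which had 77.3, 96.9 and 119 CPM under Tfh_5 and 186, 197 and 196 CPM under Tfh_1 (-0.98 ± 0.26, adjusted p = 0.0727). Neither overlapped between groups, and neither passed. Interferon response genes (32 tested, median -0.05) came nearest with the immunoproteasome gene Psmb8 (-0.75 ± 0.21, adjusted p = 0.0861), and coinhibitory receptors (11 tested, median -0.28) with Ctla4 (-0.82 ± 0.26, adjusted p = 0.155). The lists of Th2 (9 tested), IL-6 and STAT3 (19), cholesterol and fatty acid synthesis (31), amino acid supply (26) and respiratory chain genes (39) had medians of 0.29, -0.13, 0.11, -0.25 and 0.01. Adora2a was the called member of 16 adenosine, cAMP and metallothionein genes, with a median of -0.28.

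Markers of other cell types were low. The B cell list summed to 53.9 to 81.5 CPM under Tfh_5 and 140 to 174 CPM under Tfh_1, which does not overlap, and 7 of its 16 genes, Ms4a1, Pax5 and Cd22 among them, were at 0 in all 6 libraries. The sum was mostly the MHC class II gene H2-Ab1 (57.9 CPM under Tfh_5 and 135 CPM under Tfh_1 on average, log2 fold change -1.22 ± 0.32, edgeR adjusted p = 0.0703) and Ebf1 (7.70 CPM under Tfh_5 and 19.99 CPM under Tfh_1). Its part in the genes lower under Tfh_5 was not tested. Myeloid and dendritic markers summed to 10.5 to 18.7 CPM under Tfh_5 and 0.457 to 11.4 CPM under Tfh_1, with 14 of 20 at 0 in all 6 libraries, Lyz2, Adgre1 and Cd14 among them. CD8 T cell markers summed to 30.3 to 46.9 CPM under Tfh_5 and 31.8 to 64.2 CPM under Tfh_1, and natural killer and innate lymphoid markers to 6.19 to 12.3 CPM under Tfh_5 and 3.96 to 19.5 CPM under Tfh_1. The sums of γδ T cell markers were 0 to 8.17 CPM under Tfh_5 and 0 to 9.24 CPM under Tfh_1, those of erythroid and platelet markers 1.14 to 5.35 CPM under Tfh_5 and 1.49 to 19.9 CPM under Tfh_1, and those of stromal and epithelial markers 13.2 to 26.1 CPM under Tfh_5 and 21.3 to 24.6 CPM under Tfh_1.

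The same treatments in the 6 libraries labelled CD4Cre+, which held Maf RNA, share no library with this comparison, although the fit takes 1 estimate of the spread for both. There edgeR called 206 of 11735 genes (1.76%), 51 higher (0.435%) and 155 lower (1.32%) under Tfh_5. Of the 65 genes called with the label CD4Cre-, 60 had the same sign with the label CD4Cre+, against 56.4% of all tested genes. 29 were called in the same direction under both labels, 12 higher and 17 lower, which is 29 of 65 and 29 of 206, and 0 were called in opposite directions. The 3 CD4Cre+ libraries per treatment did not overlap, in the same direction, for 37 of the 65 genes, against 10.7% of all tested genes.

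Genes called under both labels spanned the groups above. Tnfrsf9 had log2 fold changes of -1.70 ± 0.23 with the label CD4Cre- and -2.39 ± 0.23 with the label CD4Cre+, and in the same order Tnfrsf18 had -1.21 ± 0.21 and -1.46 ± 0.22, and Tnfrsf4 -1.10 ± 0.19 and -0.97 ± 0.19. With the label CD4Cre- and then CD4Cre+, Timp2 had 2.45 ± 0.29 and 1.92 ± 0.29, Aplp2 1.85 ± 0.28 and 2.19 ± 0.28, Sox4 3.19 ± 0.67 and 4.22 ± 0.62, and Pmepa1 1.03 ± 0.23 and 2.04 ± 0.24. Ccr7, Id3, Tg, Ctsw, S100a4, Rnf149 and AA467197 were also called under both. None of these 14 genes passed edgeR's test of the difference between labels, in which Tnfrsf9 and Pmepa1 had adjusted p = 0.546 and 0.388.

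Other genes were called with the label CD4Cre- and not with the label CD4Cre+, without a called difference between the labels. Tagap had log2 fold changes of 2.40 ± 0.33 with the label CD4Cre- and 0.54 ± 0.32 with the label CD4Cre+ (edgeR adjusted p of the difference = 0.106). In the same order Paxbp1 had -1.73 ± 0.32 and 0.28 ± 0.31 (adjusted p = 0.0766 for the difference), Polr2b -3.10 ± 0.65 and 0.53 ± 0.59 (adjusted p = 0.104), and Pccb 3.60 ± 0.86 and -1.52 ± 0.78 (adjusted p = 0.0823). Cd4 and Cd247 fell by 1.04 and 1.09 with the label CD4Cre- and had -0.28 ± 0.22 and -0.05 ± 0.27 with the label CD4Cre+, and their differences between labels had adjusted p = 0.492 and 0.427.

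**Figure D4:**
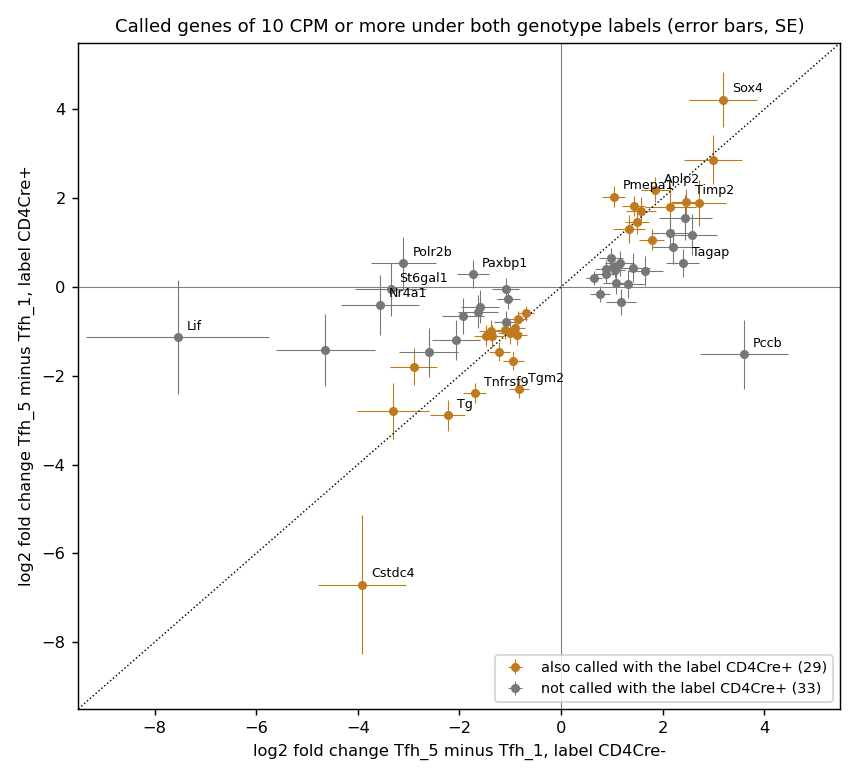
Each point is a gene called in libraries labelled CD4Cre- with at least 10 CPM in the higher treatment, with its log2 fold change of Tfh_5 over Tfh_1 under that label on the x axis and under the label CD4Cre+ on the y axis, and bars are SE. Orange genes were called under both labels and grey genes with the label CD4Cre- only, and the dotted line marks equal change. Most points lie in the quadrants of equal sign, and 5 lie outside them, Pccb, Paxbp1 and Polr2b and, closer to 0 on the y axis, Glrx2 and Fth1, which were named after their values were seen. The calls of Glrx2 and Fth1 with the label CD4Cre- held only without Tfh_5 replicate 4. In the other 5 fits that left out a library, edgeR's adjusted p was 0.0689 to 0.221 for Glrx2 and 0.0934 to 0.193 for Fth1.

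The test of the difference between labels called 7 of 11735 genes (0.0597%), and 992 had an unadjusted p under 0.05. In all 7 the log2 fold change was higher with the label CD4Cre- than with the label CD4Cre+. Of these, Tgm2 was also among the 65. It had 241, 249 and 255 CPM under Tfh_5 and 421, 414 and 488 CPM under Tfh_1 with the label CD4Cre-, against 59.8, 46.9 and 44.6 CPM under Tfh_5 and 294, 265 and 184 CPM under Tfh_1 with the label CD4Cre+. It was thus lower under Tfh_5 with either label, by more with the label CD4Cre+ (difference 1.47 ± 0.29 on the log2 scale, edgeR adjusted p = 0.0203).

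Pgk1, the glycolytic phosphoglycerate kinase, averaged 366 CPM ± 21.3 under Tfh_5 and 430 ± 4.98 under Tfh_1 with the label CD4Cre-, against 203 ± 13.6 under Tfh_5 and 527 ± 42.4 under Tfh_1 with the label CD4Cre+. Among the glycolysis and hypoxia list as a whole, 0 of 30 genes were called with the label CD4Cre- (median -0.52) and 21 were called lower with the label CD4Cre+ (median -1.02), against 0.281% and 1.32% of all tested genes called lower under these labels. Of the 30, Pgk1 alone passed the test of the difference between labels. Mt1, a metallothionein that binds zinc and copper, had log2 fold changes of -0.73 ± 0.19 with the label CD4Cre- and -2.51 ± 0.20 with the label CD4Cre+. For Lgals3, which encodes galectin-3, they were, with CD4Cre- and then CD4Cre+, 0.20 ± 0.29 and -2.60 ± 0.31, for Fam162a, a hypoxia-induced mitochondrial protein, -0.095 ± 0.17 and -1.71 ± 0.18, and for Ly6a, the surface protein Sca-1, -0.055 ± 0.17 and -1.29 ± 0.17. The last of the 7 was Adora2b, an adenosine receptor gene with 192 counts under Tfh_5 and 201 under Tfh_1 with the label CD4Cre-, and 0 under Tfh_5 and 133 under Tfh_1 with the label CD4Cre+.

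**Figure D5:**
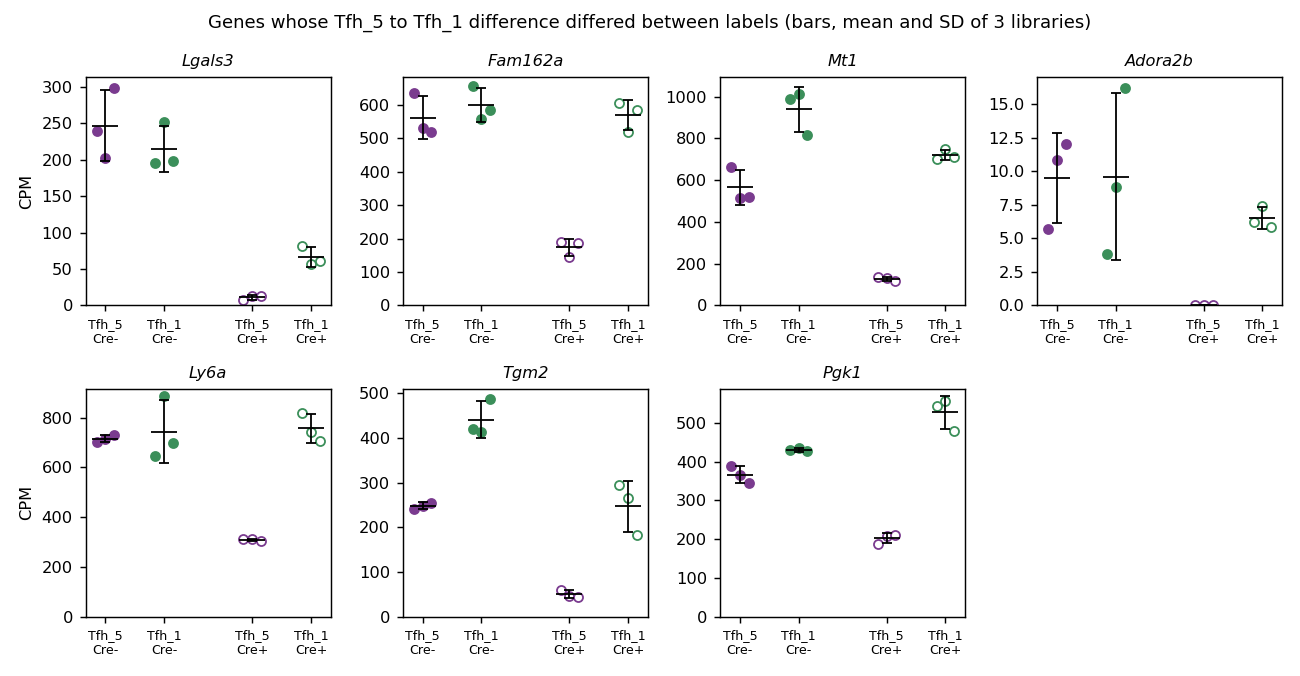
Points are CPM in single libraries for the 7 genes whose difference between treatments differed between labels, with Tfh_5 left of Tfh_1, filled points for the label CD4Cre- and open points for the label CD4Cre+, and bars are the mean and SD of 3 libraries. The open Tfh_5 points are the lowest in every panel, for Pgk1 at 187 to 212 CPM.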

How the data were processed

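Polyadenylated RNA was measured in 18 libraries, 3 per genotype label and treatment, with a 3′ mRNA kit from Lexogen, per the labels' protocols. The authors deposited expected counts per gene, not normalized and in part fractional (11.7% to 18.1% of the values per library), made with STAR 2.7.2b and featureCounts 1.6.4 on mm10, per the submitters' processing notes. The strand setting and the way shared reads were divided were not given in the sources used here, which leaves overlapping and antisense genes and those with near copies uncertain. Of 27179 Entrez identifiers 25275 were named through RefSeq tables of GRCm38.p6, the patched assembly behind mm10.

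The tests had been planned for whole counts, so values were rounded before a test in edgeR 4.0.16 under R 4.3.3 (TMM factors, filterByExpr, robust quasi-likelihood fit of all 18 libraries, 1 mean per group), with Benjamini-Hochberg adjustment over 11735 genes and a threshold of 0.05. CPM use the library size times its TMM factor (0.836 to 1.08 in the 6 libraries). SE was taken as the absolute log2 fold change over the square root of F. The common biological coefficient of variation was 0.814. Total counts were 6424874 to 9236153 per library. A group at 0 counts allows up to 3 counts, and intervals and floors cover counting error only. On simulated data of this comparison with 11735 genes, 78 of 100 genes changed 4-fold and 27 of 100 changed 2-fold were called, with 4 unchanged genes called.

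Alternatives were DESeq2 1.42.0, limma-voom (limma 3.58.1), other size factors, no filter, the groups compared alone, a replicate block, the 2 most abundant identifiers left out, fractions cut off, and each library left out. The comparison and the gene lists (938 of 940 entries matched) were chosen with earlier results of these data known, so no list is independent evidence and none was tested as a set. Named are Maf and a panel of lineage genes, the 15 called genes with the largest change and the 10 with the smallest adjusted p in each direction, all without overlap and reaching 10 CPM in the higher of the groups, up to 4 called members of each list or up to 2 as values where none was called, and the genes that differ between labels. Some genes that this rule names are not reported here. A few further genes are said to be named after their values were seen.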

Additional observations from a re-analysis of the deposited data

Results flagged for a closer look

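7 genes stood out because the difference between Tfh_5 and Tfh_1 was unequal under the genotype labels in edgeR's test of that difference (label CD4Cre- minus label CD4Cre+, on the log2 scale). Maf RNA ran against the labels, so the direction between labels is one between names. No explanation was tested.

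Lgals3, which encodes galectin-3, had 240, 202 and 299 CPM under Tfh_5 and 196, 252 and 198 CPM under Tfh_1 with the label CD4Cre-, where the groups overlapped. With the label CD4Cre+ it had 6.65, 12.9 and 13.04 CPM under Tfh_5 and 81.4, 57.0 and 60.2 CPM under Tfh_1, and the difference between labels was 2.80 ± 0.42 (edgeR adjusted p = 0.000766). Fam162a, a hypoxia-induced mitochondrial protein, averaged 562 CPM ± 64.8 under Tfh_5 and 600.1 ± 51.1 under Tfh_1 with the label CD4Cre- (SD, n = 3), and 174 ± 25.4 under Tfh_5 and 569.9 ± 44.6 under Tfh_1 with the label CD4Cre+, a difference of 1.62 ± 0.25 (edgeR adjusted p = 0.000766). Mt1, a metallothionein, had 565 CPM ± 84.2 under Tfh_5 and 938 ± 107 under Tfh_1 with the label CD4Cre-, and 126 ± 8.84 under Tfh_5 and 719 ± 25.1 under Tfh_1 with the label CD4Cre+ (difference 1.78 ± 0.28, edgeR adjusted p = 0.000766). With the label CD4Cre- alone, Mt1 separated the libraries without being called (-0.73 ± 0.19, adjusted p = 0.0727).

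Adora2b, an adenosine receptor gene with few counts, had 192 counts under Tfh_5 and 201 under Tfh_1 with the label CD4Cre-, and 0 under Tfh_5 and 133 under Tfh_1 with the label CD4Cre+. The fitted difference of 8.59 depends on the prior count, because 1 group was at 0 (edgeR adjusted p = 0.00460). Ly6a, the surface protein Sca-1, averaged 717 CPM ± 12.6 under Tfh_5 and 744 ± 128 under Tfh_1 with the label CD4Cre-, and 309 ± 4.69 under Tfh_5 and 757 ± 57.8 under Tfh_1 with the label CD4Cre+, a difference of 1.24 ± 0.24 (edgeR adjusted p = 0.0168). For Tgm2 the difference was 1.47 ± 0.29 (edgeR adjusted p = 0.0203) and for Pgk1 it was 1.15 ± 0.24 (edgeR adjusted p = 0.0385).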

How the results depend on the processing

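Against 65 genes called, the count was 232 without the count filter (88 higher, 144 lower), 211 with DESeq2 (93 and 118), 28 in a fit of the 6 libraries alone, and 25 to 94 with 1 library left out. Other size factors gave 66, limma-voom 82, leaving out the 2 most abundant identifiers 64 and cutting fractions 67. Called genes on the lists numbered 21, and 58, 47 and 7 without the filter, with DESeq2 and with the 6 libraries alone, and 8 to 20 with 1 library left out. The difference between labels held for 7 genes, and for 45, 52 and 3 under the same settings and 5 to 21 with 1 library left out. The cause of these shifts was not tested, apart from fewer libraries in the last kinds of fit. List counts under settings other than the tools, the groups alone and left-out libraries were added after seeing the data.

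No label says what a replicate number stands for, so the numbers were not treated as pairs in the main fit. The numbers 2, 4 and 5 recur under each treatment with the label CD4Cre-. Deviations of same-numbered libraries from their group means had correlations of 0.019, 0.004 and -0.000 for replicates 2, 5 and 4. With only 3 libraries behind each mean, these values cannot show whether same-numbered libraries shared a source. With the replicate block the count was 63 over all libraries, 55 of them shared with the 65, and 40 over the 6 libraries, 26 shared. List genes called were 20 and 10, and differences between labels 16 and 4.

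Of the 49 named genes that were called, 15 kept call and direction in all alternatives run. Genes named that limma-voom did not call include Id3, Pdlim5, Acsbg1, Adora2a, Polr2b, Nr4a1, Cd4, Trim59, Slamf1, St6gal1, Pde6d, Tgtp2, Wipf1, Pccb, Sox4, Klf2, Cd247 and Snrnp70, and Id3 was not called with the replicate block over the 6 libraries either (adjusted p = 0.155). Low or uncalled genes changed sign. Under limma-voom the log2 fold change of Tbx21 was -0.41 and that of Il23r -0.058. With the replicate block over all libraries Tcf7, Il23r and Cxcr5 stood at 0.43, -0.12 and -1.29, and with it over the 6 libraries Tbx21, Il23r and Cxcr5 at -0.14, -0.26 and -0.47. With 1 library left out, the log2 fold change ran from -6.04 to 0.00 for Maf, -0.63 to 0.56 for Il23r, -0.44 to 0.67 for Tbx21, -3.21 to 1.97 for Tcf7, -0.98 to 0.61 for Cxcr5, -0.15 to 0.092 for Ly6a, -0.023 to 0.47 for Crlf2, -0.057 to 2.42 for Rora, -2.09 to 3.29 for Gata3 and -0.23 to 0.79 for Smad7. At 6437493 to 8219189 counts per library, genes of a few CPM rest on few counts.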
